A study of Drosophila melanogaster with 12 samples.

Results

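Chromatin of the gut was compared between adult female Drosophila melanogaster whose foxo transgene had been switched on and off again and females labelled as not induced. The comparison covers 2896 nuclear regions, which are all regions of the gut table that do not lie on the mitochondrial chromosome. That table holds 2906 regions, and the tables of both tissues in the series hold 6353. The question posed by the series' title is whether earlier foxo activity left a mark in chromatin. The labelled gut gave 3 control and 3 switched libraries, here called control 1 to 3 and switched 1 to 3.

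Every fly had the genotype S106_UASfoxo, so controls too carried the S106 driver and the UAS-foxo transgene. Controls are told apart by the label RU486- alone, since the protocol text with RU486 feeding is the same for all libraries, and they are taken here as uninduced on that label. The switched flies were fed 200 µM of RU486 over 21 days before 7 days on control food. S106 is a GeneSwitch line, known as active in adult fat body and parts of the digestive tract, and RU486 is the steroid that activates it. No group ate RU486 without UAS-foxo, so an effect of the drug and an effect of foxo cannot be told apart. The labels do not say how many guts went into a library or whether libraries came from separate cultures, and the p-values below measure only the spread between these libraries.

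The forkhead transcription factor encoded by foxo is held in the cytoplasm when insulin signalling is high and enters the nucleus when it is low, where it turns on genes of stress resistance, growth control and nutrient use. In the intestine, enterocytes digest and absorb food, enteroendocrine cells secrete peptide hormones, and intestinal stem cells replace both. ATAC-seq marks open chromatin by letting the Tn5 transposase cut accessible DNA, so a higher count in a region stands for more cuts there. In a whole tissue, fewer cells of a type and less open chromatin per cell cannot be told apart.

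The 2 libraries numbered 1 stood apart from the other 4 in both groups. Nuclear counts were 34316, 98949 and 114182 in control 1 to 3 and 22164, 138767 and 71672 in switched 1 to 3. Between 69.2% and 87.6% of each library's counts lay on the mitochondrial chromosome. Off the chromosome arms, on unplaced scaffolds and the Y chromosome, lay 30.8% and 28.7% of the nuclear counts of control 1 and switched 1, against 3.76% to 6.32% in the other 4 libraries. A region with at least 1 count was found for 69.1%, 82.9% and 77.2% of the nuclear regions in control 1 to 3 and for 43.2%, 81.6% and 71.8% in switched 1 to 3. Across the 1833 regions tested below, Spearman's rho was 0.439 to 0.478 between deep libraries of 1 group and 0.328 to 0.509 between deep libraries of different groups, while a library numbered 1 reached 0.0214 to 0.168 with a deep library. These values describe regions that share depth and library. The numbers of regions tested and called, and the counts of most gene lists, are therefore given with all 6 libraries and with the 4 that remain when both numbered 1 are left out. Values of single regions and genes are from all 6 libraries unless the 4 are named, and not all are given both ways.

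**Figure D1:**
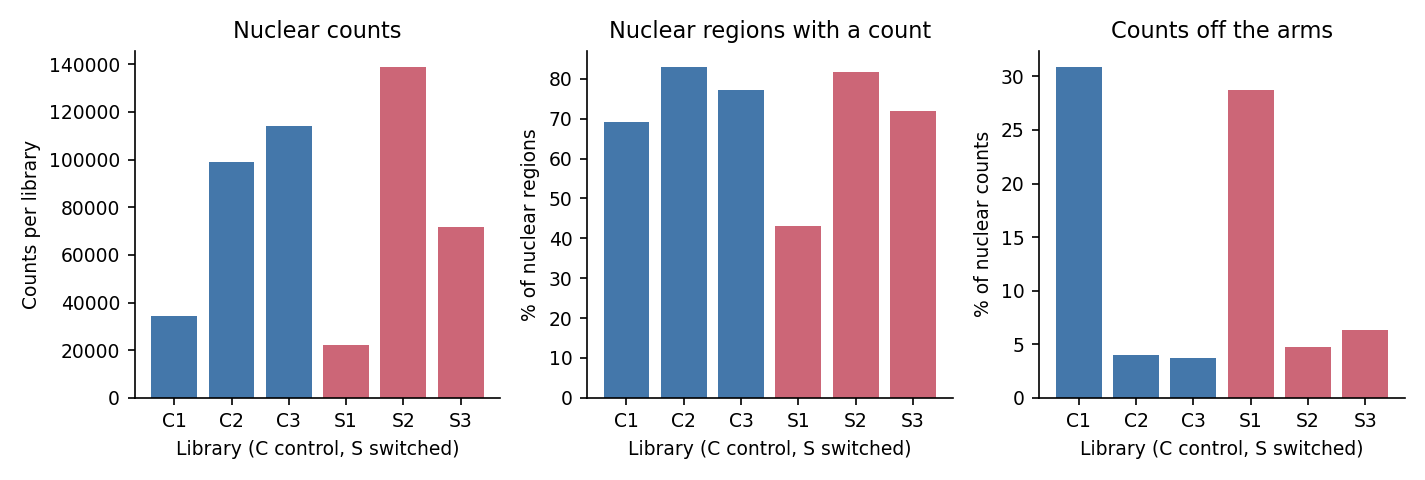
Nuclear counts per library (left, counts), nuclear regions with at least 1 count (middle, % of 2896) and counts off the chromosome arms (right, % of nuclear counts). One bar stands for 1 library, C for control and S for switched; C1 and S1 have the fewest nuclear counts and the highest share off the arms.

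The label gut was checked against marker genes. Of 12 genes of gut identity, 1 had a region within 1000 bp, Myo61F, which encodes the enterocyte brush border myosin. Of 37 genes for digestive enzymes, 1 had a region, the maltase gene Mal-A5, and it was too sparse to be tested with 6 libraries. Of 17 matched genes for stem and enteroendocrine cells, 3 had a region, namely Sox100B, the peptide hormone gene CCHa2 and dimm. Of the lists for other cell types, a region was found for 6 of 15 fat body genes, 8 of 13 matched oenocyte genes, 5 of 17 haemocyte genes, 2 of 19 visceral muscle genes, 1 of 18 neuronal genes, 2 of 13 Malpighian tubule genes and 2 of 15 matched ovary genes. The regions near oenocyte genes held 0.62% to 1.51% of each library's arm counts, and those near gut identity genes 0% to 0.0886%. Of all 13951 protein-coding genes, 1510 had a region, so most genes of any kind had none. The 1 of 12 gut identity genes lies near that share and the 1 of 37 digestive enzyme genes below it. The 8 of 13 oenocyte, 6 of 15 fat body and 5 of 17 haemocyte genes lie above it, and the reason was not tested. Regions at these markers do not decide the label, and the tissue is called gut below only as its label does.

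Of the 2896 nuclear regions, 2292 lie on the chromosome arms, 580 on scaffolds and 24 on the Y chromosome. On the arms, 1733 regions overlap a protein-coding gene, 260 lie within 1000 bp of one and 299 have none that near. A gene end, meaning either end of a gene within 500 bp of the region's midpoint, was met by 1020 of them. Regions are short, with a median of 148 bp and a range of 82 to 1990 bp. Counts were read in all 6 libraries for 636 regions, while 118 regions had none in any control library and 270 had none in any switched library.

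No region of gut chromatin passed the test after adjustment. Of 1833 regions with enough counts, edgeR's quasi-likelihood test called 0 (0%) with 0.05 as the threshold for the adjusted p, whose lowest value was 0.921. Before adjustment, 6 regions were higher in switched flies (0.327%) and 20 were lower (1.09%) at a p under 0.05. DESeq2 also called 0 regions (0%), with 15 higher and 37 lower at an unadjusted p under 0.05. Leaving out 1 library at a time gave 5 to 38 higher and 19 to 122 lower regions in edgeR, with the most higher without control 2, the most lower without switched 2 and 0 called each time. Fold changes lay below 0 more often than above it: 753 of 1833 were above 0 (41.1%) and the median log2 fold change was -0.22. That lean depended on scaling, since nuclear totals without TMM factors put 946 of 1833 above 0 and the median at 0.05.

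Precision was low. The median standard error of a region's log2 fold change was 1.66, and it was 0.90 in a fit of the 636 regions read in all 6 libraries alone. In switched 1, 913 of the 1833 tested regions had no count, and in control 1, 479 had none. Groups did not overlap, with every switched library above every control library, at 72 regions (3.93%), and with every switched library below at 125 (6.82%). Of those 125, 94 had no count in switched 1.

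Leaving out both libraries numbered 1 gave a tighter comparison. Of 2001 regions tested, edgeR again called 0 (0%), and no adjusted p lay below 0.746. The median standard error fell to 1.24. At an unadjusted p under 0.05, 40 regions were higher (2%) and 53 lower (2.65%). Above 0 lay 951 of 2001 fold changes (47.5%), and their median was -0.07. On the same 4 libraries DESeq2 called 47 regions (2.35%), 15 higher (0.75%) and 32 lower (1.6%), in a fit added after the data were seen. Whether a region is called thus depended on the tool with 4 libraries, and no region was called by edgeR with either set.

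**Figure D2:**
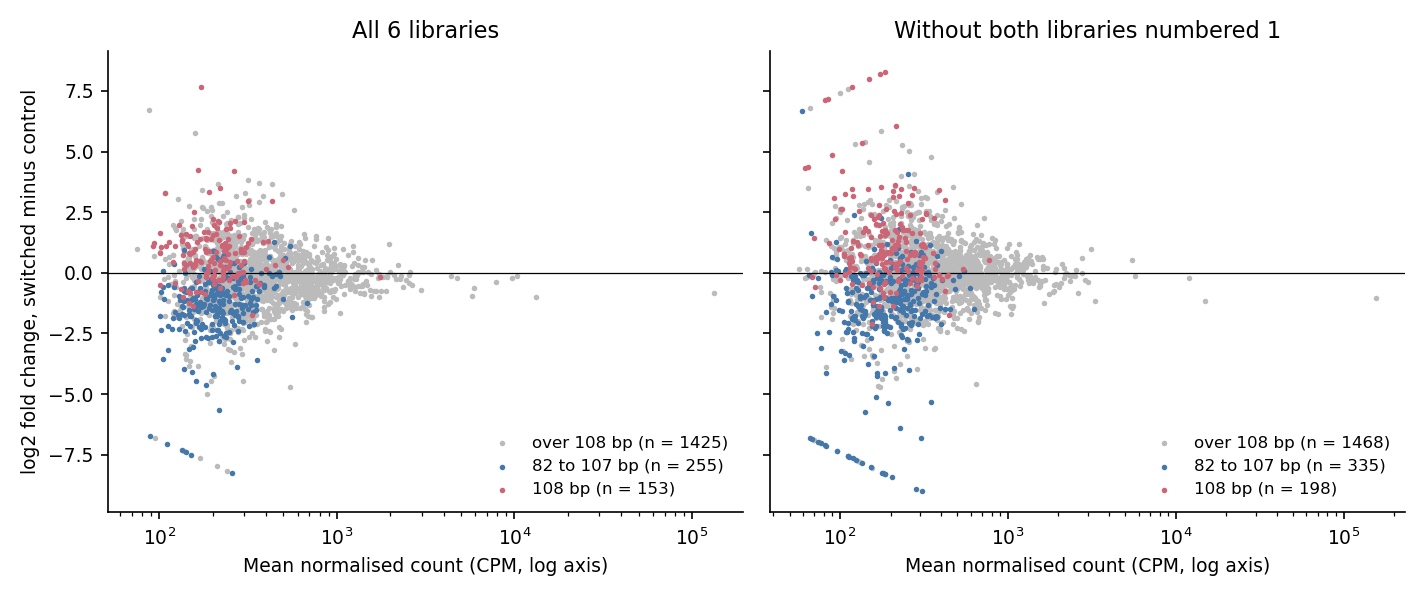
Log2 fold change of each tested region, switched minus control (y axis), against its mean normalised count in CPM (x axis, log scale), with all 6 libraries (left) and without both numbered 1 (right). One point is 1 region, blue for 82 to 107 bp, red for 108 bp and grey for longer ones; blue points lie mostly below 0 and red points mostly above it, and the oblique rows of points at the edges are regions with no count in 1 group.

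Length went with direction. Of 255 tested regions of 82 to 107 bp, 28 had a fold change above 0 (11%), and their median log2 fold change was -1.17. Of 153 tested regions of exactly 108 bp, 114 lay above 0 (74.5%), with a median of 0.63. Of 1425 tested regions over 108 bp, 611 lay above 0 (42.9%), with a median of -0.17. Lengths of 82 and 108 bp were also the commonest, with 325 and 278 regions. The split was present without both libraries numbered 1, where 16.1% of the shortest regions, 80.8% of those of 108 bp and 50.2% of those over 108 bp lay above 0.

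The same split showed in which libraries held any count. Regions of 82 bp had a count in 69.5%, 81.2% and 76.9% of cases in control 1 to 3 and in 19.4%, 58.2% and 48.3% in switched 1 to 3. Regions of 108 bp had one in 43.9%, 78.4% and 59.4% in control 1 to 3 and in 45.3%, 89.6% and 79.1% in switched 1 to 3. The groups did not overlap at 82 bp, where every switched library was below every control library, and did overlap at 108 bp. How the regions were called is not given in the sources used here, and the part of length in the results that follow was not tested. Lengths of the higher and lower regions named next are given beside them.

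**Figure D3:**
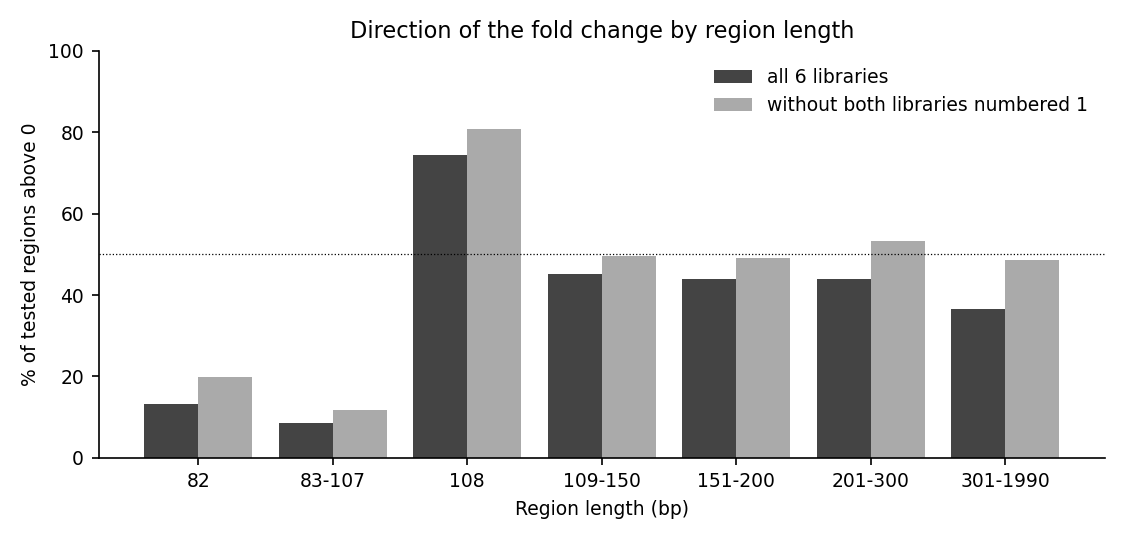
Share of tested regions with a log2 fold change above 0 (y axis, %) by region length in bp (x axis), with all 6 libraries (dark bars) and without both numbered 1 (light bars); the dotted line marks equal shares in both directions. Regions under 108 bp lean below 0, regions of 108 bp lean above it, and longer ones lie near the line or below it.

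The 10 higher regions with the smallest p lie near Osi7, Con, ken, dup, CG5958, cta, Dys, Idh, CG12010 and cwo, in that order. None is under 108 bp and 4 are of exactly 108 bp. In control 1, 9 of the 10 had no count. All 10 kept their direction under every other setting in which they were tested. That was close to fixed beforehand, since they were picked from these same libraries and the groups did not overlap at any of the 10. None passed an adjusted p under 0.05 in edgeR.

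The region with the smallest p of these lies in Osi7 (chr3R:6249804-6249951, 148 bp), of the insect-specific Osiris gene family. Its counts were 0, 0 and 0 in control 1 to 3 and 8, 18 and 11 in switched 1 to 3. All control libraries were empty and all switched libraries were read, which puts switched flies at least 11.1-fold higher if the empty group is set to a floor of 3 counts in all. The unadjusted p in edgeR was 0.00387 and the adjusted p 0.921.

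A region in Con (chr3L:4969213-4969320, 108 bp), which encodes the cell adhesion protein Connectin, behaved alike. Its counts were 0, 0 and 0 in the controls and 17, 18 and 28 in the switched libraries, at least 19.0-fold higher (adjusted p in edgeR 0.927). Without both libraries numbered 1 its adjusted p was 0.0409 in DESeq2 and 0.746 in edgeR. The floor covers counting error only. This region and that of Osi7 passed the count filter through the switched libraries alone.

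The gene ken encodes a BCL6-like repressor that limits targets of the JAK/STAT pathway. A region inside it (chr2R:23872280-23872451, 172 bp) had 0, 1 and 0 counts in control 1 to 3 and 6, 75 and 13 in switched 1 to 3. Every switched library exceeded every control, and the log2 fold change was 5.76 ± 2.17 (SE), with an unadjusted p of 0.0156 and an adjusted p of 1 in edgeR. Without both numbered 1 it was 5.85 ± 1.91.

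The 1 region of the 10 with a count in all 6 libraries lies at the gene end of dup and also overlaps SRPK (chr2R:15380871-15381102, 232 bp). Double parked, the product of dup, is the fly Cdt1, which licenses replication origins. Counts were 1, 6 and 7 in control 1 to 3 and 30, 60 and 77 in switched 1 to 3. All switched libraries, the shallow one included, held more than any control, at normalised counts of 804 ± 306 against 59.5 ± 29.9 CPM (SD, 3 libraries each). The log2 fold change was 3.68 ± 1.45 with all libraries (adjusted p in edgeR 1) and 3.35 ± 1.01 without both numbered 1 (adjusted p 0.746 in edgeR and 0.0213 in DESeq2).

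Dys and cwo stood further down by p. Clockwork orange, from cwo, represses targets of the circadian clock. Its region (chr3R:10395588-10395695, 108 bp) had 0, 13 and 12 counts in the controls and 33, 99 and 41 in the switched libraries, which did not overlap, and its log2 fold change was 2.94 ± 1.48 (adjusted p in edgeR 1). The region in the dystrophin gene Dys (chr3R:19472234-19472374, 141 bp) had 0, 14 and 0 counts against 26, 78 and 49, again without overlap, and a log2 fold change of 3.70 ± 1.77. Without both numbered 1, cwo was at 2.24 ± 0.92 and Dys at 3.13 ± 1.57. The other regions of this set lie near CG5958 (173 bp), cta (108 bp), Idh (134 bp) and CG12010 (108 bp), with log2 fold changes of 3.25 ± 1.43, 4.22 ± 1.87, 3.82 ± 1.83 and 4.22 ± 2.03 and adjusted p-values of 1 in edgeR. Of these genes, cta encodes a G protein alpha subunit of cell shape change and Idh the NADP-dependent isocitrate dehydrogenase.

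The 10 lower regions with the smallest p had no count in any switched library. All 10 were read in all 3 controls, with at most 57 counts. They passed the count filter through the controls alone, so they could enter the test only as lower, and their values are no separate support for a change. Of these regions 6 are under 108 bp, 5 of them of 82 bp. The library switched 1, which lacked a count at about as many tested regions as it read, is 1 of the 3 empty libraries at each, so the deep switched libraries 2 and 3 carry these values.

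A region at the end of CG40228 (chr3L:27083859-27083959, 101 bp) had 9, 55 and 57 counts in control 1 to 3 and none in switched 1 to 3. On the floor of 3 counts, which leaves out the spread between libraries, the switched libraries were at least 44.6-fold lower. The unadjusted p was 0.00349 and the adjusted p 0.921 in edgeR. Without both libraries numbered 1 the adjusted p was 0.746 in edgeR and 0.000853 in DESeq2.

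Nurf-38 encodes an inorganic pyrophosphatase that is also a subunit of the chromatin remodeller NURF. A region at its gene end (chr2R:24560773-24560928, 156 bp) had 21, 18 and 51 counts in control 1 to 3 and none in the switched libraries. On the same floor, for counting error only, this set the switched libraries at least 33.2-fold lower. The adjusted p was 0.921 in edgeR with all libraries, and without both numbered 1 it was 0.746 in edgeR and 0.0107 in DESeq2.

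A region in Strn-Mlck, which encodes a myosin light chain kinase of muscle (chr2R:15952204-15952362, 159 bp), had 20, 40 and 23 counts in the controls and none in the switched libraries. On the same floor, for counting error only, the switched libraries were at least 30.6-fold lower there. The adjusted p in edgeR was 0.921, and 0.746 without both numbered 1, where DESeq2 gave 0.0107. Further lower regions lie in CG33144, CG12730, drl and CG42258, all of 82 bp, in rogdi (113 bp) and in a stretch of 2R with no gene near (146 bp). Their control libraries held 7 to 36 counts each and the bounds ran from at least 13.3-fold to at least 22.9-fold lower. Among them drl encodes a Wnt receptor of the Ryk family.

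**Figure D4:**
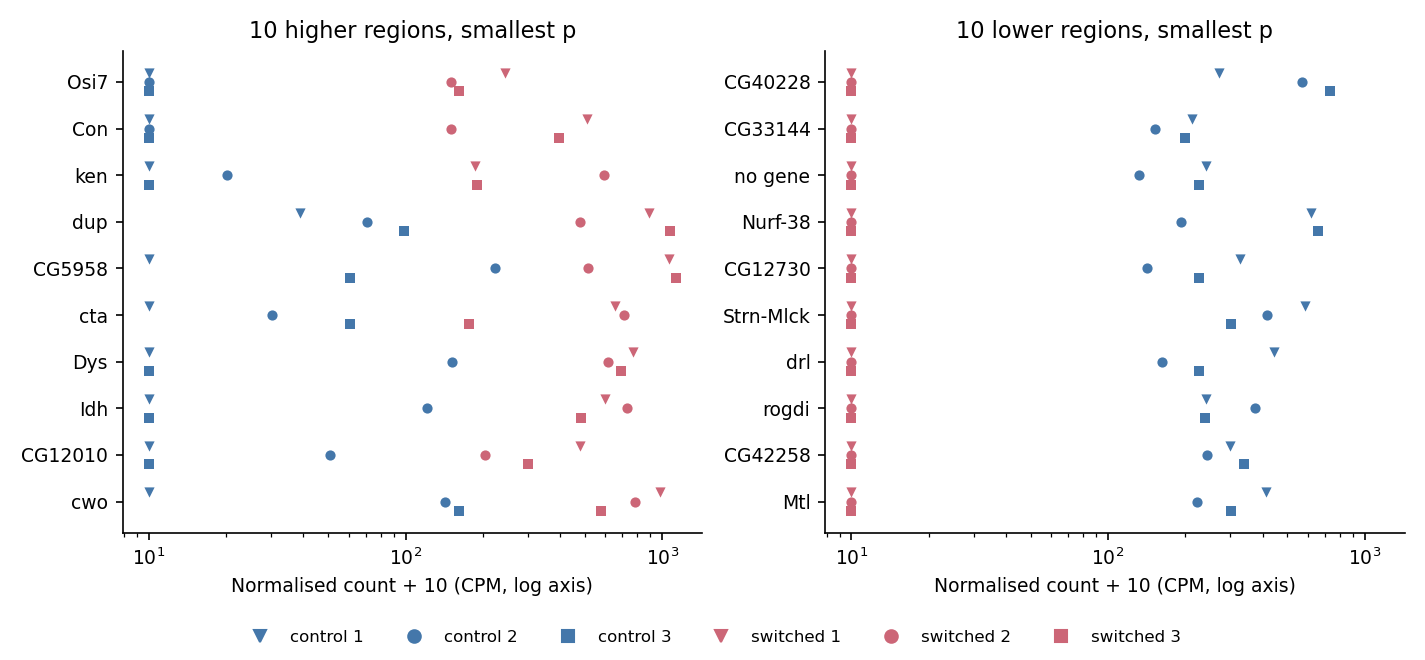
Normalised counts in CPM plus 10 (x axis, log scale) of the 10 higher regions (left) and 10 lower regions (right) with the smallest p, one row a region named by its gene. Each point is 1 library, blue for control and red for switched, with triangles for the libraries numbered 1; points at the left edge are at 0 counts, where all 3 switched libraries sit in each lower region.

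The 4 deeper libraries brought up further regions. Hnf4 encodes a nuclear receptor that drives the use of stored lipid. One region inside it (chr2L:8700771-8700969, 199 bp) had 13, 113 and 129 counts in control 1 to 3 and 0, 13 and 0 in switched 1 to 3. The highest switched value in CPM lay below the lowest control value, with 33.7 ± 58.4 against 1052 ± 634 CPM (SD, 3 libraries each). The log2 fold change was -4.70 ± 1.54 with all libraries (adjusted p in edgeR 0.921) and -4.60 ± 1.20 without both numbered 1, where the adjusted p was 0.746 in edgeR and 0.000853 in DESeq2.

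That difference was not shared by the whole gene. Summed over its 3 tested regions, Hnf4 had 41, 275 and 253 counts in the controls and 27, 353 and 86 in the switched libraries. These sums overlapped between the groups, and the log2 fold change was -0.57 ± 0.64. On regions read in all 6 libraries alone it was 1.19, as the low region then drops out.

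The other lower regions of the 4-library comparison lie in Ac13E, an adenylyl cyclase gene, in bun, which encodes a TSC22-family growth regulator, and in the glutamine synthetase gene Gs2. Ac13E had 0, 41 and 76 counts in control 1 to 3 and none in the switched libraries, bun 0, 39 and 76 against 0, 1 and 0, and Gs2 0, 52 and 31 against none. In each, control 1 was also empty. They are of 82, 86 and 84 bp, in the length range that leaned below 0, and their adjusted p-values in DESeq2 without both numbered 1 were 0.000853, 0.00595 and 0.00521, against 0.746 in edgeR for all 3.

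The higher regions there lie near Mco1, CanA-14F and rb and in a stretch of 2R with no gene near (108 bp). Near Mco1, which encodes a multicopper oxidase, counts were 0, 28 and 44 in switched 1 to 3 and 0 in every control. At CanA-14F, a gene for the catalytic subunit of calcineurin, they were 0, 34 and 29 against 0 in every control. Both regions are of 108 bp. On the floor of 3 counts, for counting error only, they were at least 21.7-fold and 19.0-fold higher. At rb, which encodes a subunit of the AP-3 adaptor (118 bp), counts were 0, 81 and 63 in switched 1 to 3 and 0, 5 and 0 in control 1 to 3 (log2 fold change 4.77 ± 1.46, adjusted p 0.746 in edgeR and 0.00804 in DESeq2).

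Of the 32 regions that DESeq2 called lower with 4 libraries, 21 are of 82 to 107 bp, and in 20 both deep switched libraries were empty. Of the 15 called higher, 5 are of 108 bp and none is shorter. In 6 of the 15 both deep control libraries were empty. Those 20 and 6 regions passed the count filter through the group with counts alone. Chosen from these calls after their values were seen, a region of Pi3K21B, the gene for the regulatory subunit of phosphoinositide 3-kinase (chr2L:298098-298224, 127 bp), had 7, 39 and 42 counts in control 1 to 3 and 0, 5 and 0 in switched 1 to 3, with a log2 fold change of -4.47 ± 2.06 in edgeR over all libraries. A second region of the same gene was also below 0, at a log2 fold change of -1.30 ± 1.80, within its error. It had 10, 57 and 7 counts against 0, 13 and 20, which overlapped.

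Regions read in all 6 libraries gave the values least tied to empty libraries, though they were picked after the values were seen. In the fit over those 636 regions, 5 were higher and 5 lower at an unadjusted p under 0.05, none passed adjustment in edgeR, and the region of dup was the highest ranked (log2 fold change 3.74 ± 0.90, adjusted p 0.649). The 5 lower ones lie in CG15635, Yp1 and Vha68-1, near nrv1 and on scaffold Un_DS484116v1, the last with the smallest unadjusted p (0.0233 in edgeR). Yp1 is a yolk protein gene expressed in the female fat body and ovary. The region inside it (chrX:10054439-10054925, 487 bp, unadjusted p 0.0441 in edgeR) had 43, 138 and 165 counts in control 1 to 3 and 7, 70 and 53 in switched 1 to 3. Its normalised counts were 1577 ± 451 and 494 ± 268 CPM (SD, 3 libraries each), without overlap, and its log2 fold change was -1.62 ± 0.73 in that fit (adjusted p 0.998). The 3 other regions of Yp1 had log2 fold changes of -0.77 ± 1.05, 0.07 ± 1.16 and 0.47 ± 1.68 over all regions tested.

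The 5 regions with the most normalised counts did not differ between the groups beyond their error. The largest lies on 2R with no protein-coding gene near (chr2R:5049531-5051294, 1764 bp). It held 1351, 4825 and 33527 counts in control 1 to 3 and 2065, 16268 and 7063 in switched 1 to 3. The high library is control 3, where this 1 region took 29.4% of the nuclear counts against 3.94% to 11.7% elsewhere, and the groups overlapped. Its log2 fold change was -0.85 ± 1.43 (adjusted p in edgeR 1), and without control 3 it was 1.06. An X-linked region without a gene (chrX:21836396-21838363) was likewise highest in control 3, with 3070 of its counts there, and moved from -0.98 ± 1.03 to 0.32 without that library.

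Of the others, 1 overlaps both CG45087 and Pepck1, a gene of gluconeogenesis (1383 bp), with 66, 1031 and 1486 counts in the controls and 73, 1650 and 854 in the switched libraries, and a log2 fold change of -0.22 ± 1.00. One lies in Ppr-Y on the Y chromosome, with 781, 429 and 452 against 518, 679 and 670 counts and a log2 fold change of -0.13 ± 0.94. The last lies on a scaffold, at -0.38 ± 1.00. In the latter 2 the library numbered 1 was the highest control in CPM, and without both numbered 1 the log2 fold changes were 0.54 ± 0.56 and 0.98 ± 0.50. Every library held counts on the Y chromosome, from 802 to 1385, although the flies were female. Where these reads come from was not tested, so they are not read here as open chromatin of Y genes.

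The gene carried by the transgene had 1 region. That region of foxo (chr3R:14062292-14062415, 124 bp) had 9, 53 and 16 counts in control 1 to 3 and 0, 26 and 47 in switched 1 to 3. The groups overlapped, and the log2 fold change was -0.22 ± 1.63 (adjusted p in edgeR 1) with all libraries and 0.20 ± 1.05 without both numbered 1. Whether reads of the UAS-foxo transgene can fall in this region is not known from the sources used here. The insulin receptor gene InR, a known FOXO target, had 2 regions. The one at its gene end (chr3R:21619229-21619443) had 0, 44 and 2 counts against 1, 114 and 43, with overlap, and a log2 fold change of 1.64 ± 1.74. Thor, the 4E-BP gene that FOXO is known to induce, had no region within 1000 bp.

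Sums over the tested regions of each gene were used for the gene lists, and 1241 genes had one. In edgeR 0 sums were called (0%) at an adjusted p under 0.05, with 9 higher (0.725%) and 14 lower (1.13%) at an unadjusted p under 0.05. Above 0 lay 531 of 1241 (42.8%), with a median log2 fold change of -0.19. DESeq2 called 2 sums lower (0.161%), CG40228 and Nurf-38, both with an adjusted p of 0.0384 and both resting on the single regions described above. Groups did not overlap at 64 sums that were higher (5.16%) and 88 that were lower (7.09%). Without both libraries numbered 1, edgeR called 0 of 1364 sums (0%), with 26 higher (1.91%) and 33 lower (2.42%) at an unadjusted p under 0.05 and 661 above 0 (48.5%). The median log2 fold change of all sums was -0.04 there. DESeq2 then called 19 (1.39%), 7 higher (0.513%) and 12 lower (0.88%). Nuclear totals without TMM factors moved the median of all sums to 0.05, so a list is best read against that of all sums. No member of any list passed adjustment in edgeR.

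Genes of FOXO and insulin signalling lay on both sides. Of 28 matched genes 8 were measured, 3 above 0 and 5 below, with a median of -0.13, and without both numbered 1 they were 4 and 4 with a median of 0.05. The kinase gene Akt had 0, 19 and 5 counts in the controls and 21, 24 and 14 in the switched libraries, and a log2 fold change of 2.14 ± 1.70, but 0.61 ± 1.35 without both numbered 1. Pi3K21B stood lowest at -2.29 ± 1.40, with 17, 96 and 49 counts against 0, 18 and 20, groups that did not overlap in CPM. The best covered member, sgg, the glycogen synthase kinase 3 gene, was at 0.25 ± 1.16.

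Lipid synthesis and storage had 16 measured of 28 matched genes, 6 above 0 and 10 below, at a median of -0.19, equal to that of all sums. The direction turned without both numbered 1, with 9 above and 7 below and a median of 0.09. The median of all sums moved as well, from -0.19 to -0.04. Acsl, a long-chain acyl-CoA synthetase gene, stood lowest, with 22, 123 and 86 counts in control 1 to 3 and 1, 95 and 16 in switched 1 to 3 and a log2 fold change of -1.59 ± 1.03. The lipase gene bmm was at 1.96 ± 1.67 and overlapped between the groups in its counts of 3, 33 and 3 against 19, 148 and 0. Without TMM factors, too, 9 of the 16 lay above 0.

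The immune list, of the Toll, IMD and JAK/STAT pathways, had the most members above 0 in proportion among lists with at least 9 measured genes. Of 33 matched genes 9 were measured, 7 above 0 and 2 below, with a median of 0.48, and the counts were 7 and 2 under each of the 4 scalings tried. With the 4 deeper libraries they were 7 and 3 with a median of 0.81. The adaptor gene imd had 2, 60 and 37 counts in control 1 to 3 and 24, 104 and 79 in switched 1 to 3, without overlap in CPM. Its log2 fold change was 1.29 ± 0.98, and 0.86 ± 0.58 without both numbered 1. Relish, the NF-kappaB factor of the IMD pathway encoded by Rel, had 36, 90 and 53 counts against 26, 228 and 130, with overlap, at 0.72 ± 0.68, and 1.22 ± 0.46 without both numbered 1. Both had an adjusted p of 0.997 in edgeR.

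Regions of the immune list together held 0.438%, 0.529% and 0.334% of the arm counts in control 1 to 3 and 0.582%, 0.662% and 0.809% in switched 1 to 3. Every switched library was above every control, also with the large region of 2R left out of the total, where the shares were 0.465%, 0.558% and 0.481% against 0.67%, 0.755% and 0.904%. The share was noticed after the values were seen and carries no test. With 3 against 3 libraries, labels dealt out at random leave groups without overlap with a probability of 0.1. Some of 21 lists are thus expected to show it. Of the 21 lists 1 other did not overlap in its share, that of Malpighian tubule markers, which was also higher in switched libraries, at 0.109% to 0.278% against 0.0642% to 0.0846%. With the large region of 2R left out, the list of stress and repressor transcription factors did not overlap either. Its shares were then 0.682% to 0.91% in switched and 0.505% to 0.662% in control libraries. For the Malpighian tubule markers, control 3 and switched 3 were then both at 0.122%. The part of those markers in the immune share was not tested. One immune gene outside the list went the other way: the region of the Bomanin gene BomT1 (chr2R:18381826-18381937, 112 bp), a DESeq2 call with 4 libraries, had 0, 39 and 50 counts against 0, 8 and 2.

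Chromatin remodellers had 2 above 0 and 5 below of 7 measured, against 710 below of all 1241 sums, and a median of -1.54. Without both numbered 1 they were 3 and 5, with a median of -0.79. Their share of arm counts overlapped, at 0.299% to 0.503% in control and 0.196% to 0.454% in switched libraries. Of them 1, Nurf-38, was lower at an unadjusted p under 0.05 in edgeR. It passed the count filter through the controls alone, so it could enter only as lower. E(bx), another NURF subunit, had 8, 22 and 25 counts in the controls and 0, 8 and 0 in the switched libraries, at -3.40 ± 1.79 (-2.94 ± 1.77 without both numbered 1). Chd1 had 8, 30 and 11 against 0, 17 and 0, at -2.27 ± 1.76 (-1.64 ± 1.82 without both numbered 1). The best covered member, osa of the Brahma complex, was at -0.25 ± 0.66, and Acf at 2.68 ± 1.84 (0.00 ± 0.42 and 1.90 ± 1.84 without both numbered 1). In switched 1 the regions of Nurf-38, E(bx), Chd1 and tou had no count.

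Hormone receptors and ecdysone response genes had 6 above 0 and 9 below of 15 measured, at a median of -0.17, and the same counts with a median of -0.09 without both numbered 1. The ecdysone receptor gene EcR, with 8 tested regions, had 97, 285 and 259 counts in the controls and 31, 399 and 307 in the switched libraries, at -0.14 ± 0.60. Eip74EF, an early ecdysone response gene with 5 tested regions, had 20, 97 and 94 counts against 53, 248 and 122. Its log2 fold change was 0.98 ± 0.64, and 0.55 ± 0.44 without both numbered 1. The juvenile hormone receptor gene gce stood highest at 3.13 ± 1.68 but was at -0.22 without both numbered 1, when more of its regions entered the sum.

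Oxidative stress and autophagy genes had 3 above 0 and 7 below of 10 measured, at a median of -0.49. Atg17, of the autophagy initiation complex, had 35, 31 and 18 counts in control 1 to 3 and 0, 0 and 7 in switched 1 to 3, without overlap. It was at -3.97 ± 1.89 (adjusted p in edgeR 0.997), and at -2.48 ± 1.92 without both numbered 1. The stress regulator gene cnc, the fly Nrf2, was at -0.68 ± 0.79. Without both numbered 1 the list had 5 above and 5 below and a median of -0.01.

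Gut growth and niche signalling, with EGFR, Wnt, BMP and Hippo genes, had 6 above 0 and 2 below of 8 measured, at a median of 0.48 and with the same counts under all 4 scalings and without both numbered 1, where the median was 0.34. The BMP receptor gene tkv had 15, 172 and 40 counts in the controls and 35, 132 and 111 in the switched libraries, at 0.52 ± 0.75, and 0.23 ± 0.67 without both numbered 1. The ligand gene daw was at -0.31 ± 0.75. Stress and repressor transcription factors had 6 above and 4 below of 10, at a median of 0.16, with ken the 1 member higher at an unadjusted p under 0.05 and kay, the fly Fos, at 0.57 ± 0.76. In the 4 deeper libraries they were 7 and 3, at a median of 0.18, and kay was at 0.13 ± 0.70.

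Of the short lists no member passed the test. The unfolded protein response had 2 above and 1 below of 3, with the calreticulin gene Calr at -0.93 ± 1.26 and Atf3 at 0.31 ± 1.06, and 0 above and 3 below without both numbered 1, where the median moved from 0.31 to -0.33. Detoxification had 1 measured gene, GstD1, at -0.29 ± 1.10, and 0.39 ± 0.58 without both numbered 1. Synaptic and axon guidance genes had 0 above and 3 below, with Ten-a at -2.15 ± 1.92 and robo2 at -0.75 ± 0.99. They turned, without both numbered 1, to 2 above and 1 below, with Ten-a at 0.60 ± 1.83. Digestive enzymes and neuronal genes had no tested member with 6 libraries, and with 4 Mal-A5 was at 1.18 ± 1.38.

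**Figure D5:**
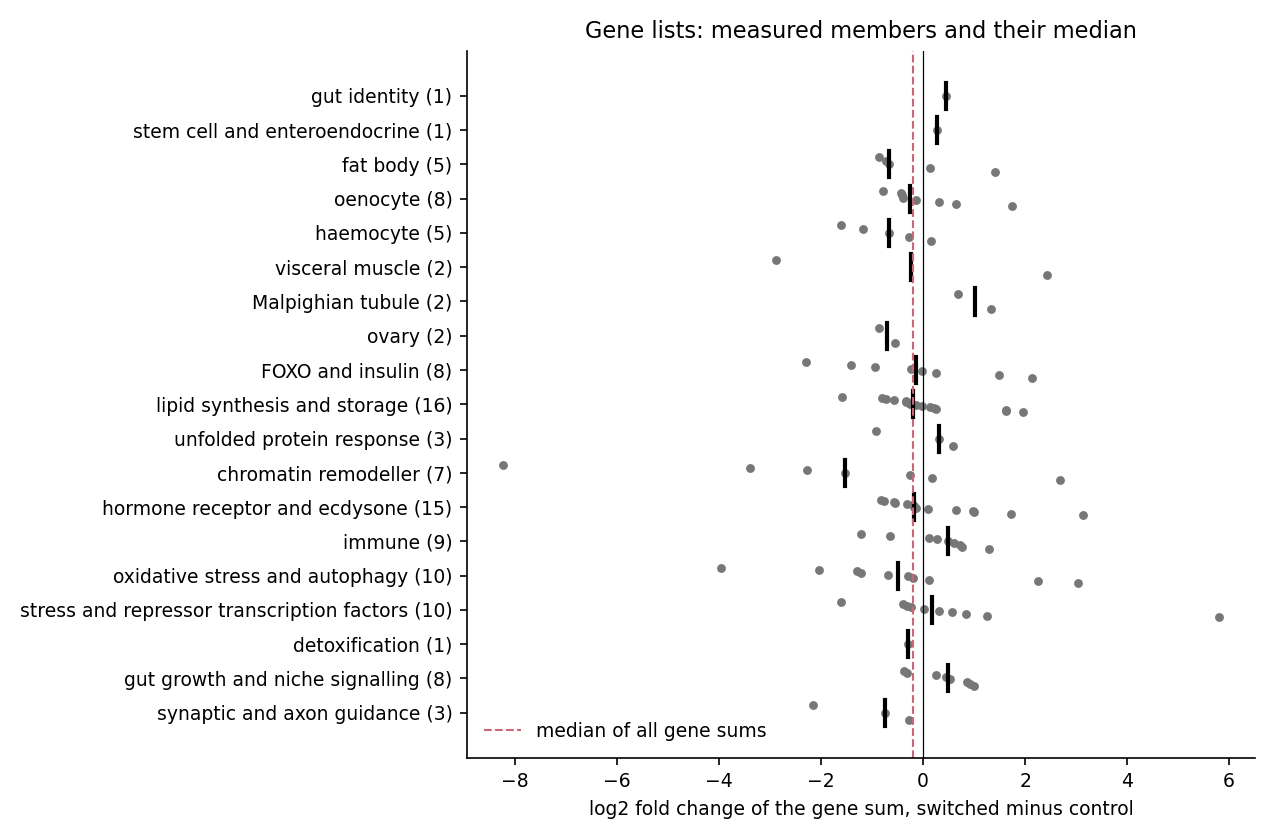
Log2 fold change of the gene sum, switched minus control (x axis), for each measured member (grey points) of the lists with at least 1, named on the y axis with their number measured. The black bar is the list's median and the red dashed line the median of all gene sums at -0.19; every list with 8 or more members has points on both sides of 0.

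Markers of other cell types had no call in edgeR, and the values of those named follow. Fat body genes had 2 above 0 and 3 below, with the sum of Yp1 at -0.86 ± 0.65. Oenocyte genes had 3 above and 5 below, with FASN2, a fatty acid synthase gene, at 1.74 ± 1.36 and the hydrocarbon-synthesis gene Cyp4g1, the best covered, at -0.39 ± 0.73. Haemocyte genes had 1 above and 4 below, with the collagen gene Col4a1 at -1.61 ± 1.06 and ush at 0.15 ± 0.63. Visceral muscle had sls, the titin-like gene, at 2.43 ± 1.68 and how at -2.89 ± 1.89. Counts of sls were 0, 24 and 3 in the controls and 31, 25 and 15 in the switched libraries, and without both numbered 1 it was at 0.55 ± 1.42. Ovary had Cp38 at -0.56 ± 1.75, and the labelled gut's own Myo61F and CCHa2 were at 0.44 ± 1.76 and 0.27 ± 1.13. With 4 libraries the counts above and below 0 of the fat body, oenocyte, haemocyte, visceral muscle and ovary lists were the same as with 6 libraries.

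Malpighian tubule markers had 2 above and 0 below with 6 libraries and 1 and 1 with 4. The chloride channel gene ClC-a was at 0.69 ± 0.86, and at -0.16 ± 0.60 without both numbered 1. The 1 region of tsh, a homeotic zinc finger gene, had 10, 1 and 4 counts in control 1 to 3 and 0, 73 and 29 in switched 1 to 3. The deep switched libraries were above every control and switched 1 was empty, so that the groups overlapped and the log2 fold change was 1.34 ± 1.83 with 6 libraries. The value without both numbered 1 was 4.02 ± 1.38, and DESeq2 called the region higher there (adjusted p 0.0417) while edgeR did not. For these markers of other cell types, their part in the other values was not tested.

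By place in the genome, median log2 fold changes were -0.22 for 843 tested regions at gene ends, -0.19 for 698 inside genes away from the ends and -0.28 for 160 others on the arms. They ran from -0.25 on the X to -0.14 on chromosome 4 among the arms and were -0.30 over 123 scaffold regions, with 0.22 without both numbered 1 over the 92 tested in both fits. Of 345 tested regions that overlap a region of the fat body table, 0 were higher and 0 lower at an unadjusted p under 0.05. In that fit, the 6 higher and 20 lower regions thus all come from the 1488 that do not. In the fit over regions read in all 6 libraries, some lower regions did overlap that table. They lie in Vha68-1, in CG15635 and on scaffold Un_DS484116v1, at unadjusted p-values in edgeR of 0.0451, 0.0341 and 0.0233.

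The share of arm counts at gene ends was 37.1%, 42.4% and 29.97% in control 1 to 3 and 37.2%, 37.7% and 40.1% in switched 1 to 3. The groups overlapped, at 36.5% ± 6.23 against 38.3% ± 1.57 (SD, n = 3 each, exact two-sided permutation p = 0.7). With the large 2R region left out the means were 42.4% and 43.5%. The share of nuclear counts off the arms was 12.9% ± 15.6 in controls and 13.3% ± 13.4 in switched libraries (SD, n = 3 each, exact two-sided permutation p = 0.8). With 3 against 3 libraries such a test cannot go below 0.1, and over the 6 shares tested the lowest Benjamini-Hochberg adjusted value was 0.96.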

How the data were processed

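Chromatin accessibility was measured by ATAC-seq in 6 gut libraries. The values the authors deposited are unnormalised read counts for each region. FastQC, Trimmomatic, MACS2, featureCounts and DESeq2 are listed without versions or roles, per the submitters' processing notes. For aligner, build and handling of duplicates nothing is given in the sources used here, and duplicates left in would widen the spread. Regions were placed on Release 6 gene spans, which carry no exons or strands. The build was settled from the share of arm regions at gene ends, 44.5% as placed and 18.9% to 21.6% after shifts of 5000 or 10000 bp.

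Regions were tested with edgeR 4.0.16 in R 4.3.3 (filterByExpr, minimum count 10 and minimum total 15, nuclear library sizes, TMM, quasi-likelihood F test, Benjamini-Hochberg), and DESeq2 1.42.0 was an alternative. The standard error is the log2 fold change over the square root of F. Normalised counts are CPM with TMM factors. Bounds use 3 counts over the empty group and leave out the spread between libraries. A region empty in 1 group could pass the filter only through the other group. Shares were tested by exact permutation in scipy 1.17.1. Scripts were tested on simulated data. The pass condition was set at a far smaller spread between libraries than in these data (common dispersion 1.35), so it does not tell which changes could be found here. Every pair of libraries differed beyond counting noise.

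The members, the 21 gene lists and the tests were chosen with earlier results of these data known. Named were, by smallest p, 10 regions in each direction, 5 in each without both libraries numbered 1, the 5 with the largest mean, each list's member with the smallest p and the largest mean, and foxo, InR and Thor. One lower region that the rule names is not reported here. Genes outside that rule were chosen after their values were seen. Alternatives changed scaling, filter, arms, tool, block and libraries. No genome sequence was used here.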

Additional observations from a re-analysis of the deposited data

How the results depend on the processing

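In edgeR 0 regions and 0 gene sums were called under every alternative. Calls came from DESeq2 alone, with 0 regions and 2 gene sums over 6 libraries, and 47 regions and 19 gene sums without both libraries numbered 1, an alternative added after the data were seen. Regions at an unadjusted p under 0.05 numbered 6 higher and 20 lower. Higher ones were 17 with nuclear totals without TMM, 19 with mitochondrial totals, 28 without the filter, 11 on chromosome arms only and 15 in DESeq2. Lower ones were 32 with mitochondrial totals, 96 without the filter, 5 over regions read in all libraries and 37 in DESeq2. Without both numbered 1 they were 40 and 53, on arms only 35 and 52, and in DESeq2 100 and 140. Leaving out 1 library gave 5 to 38 higher (30, 38 and 10 without control 1 to 3, 18 without switched 1) and 19 to 122 lower (35 without control 1, then 63, 122 and 87 without switched 1 to 3). The cause was not tested.

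The switched minus control difference in the gene-end share was 1.85 percentage points and ran from -1.41 to 4.80 with 1 library left out, and that of the off-arm share was 0.389 and ran from -7.33 to 9.38. It was -0.236 on scaffolds alone.

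Of 582 recomputed log2 fold changes of 36 named regions, 25 (6 regions) reversed and 9 became calls in DESeq2 without both numbered 1. Of 666 for 41 gene sums, 51 (14 genes) reversed and 6 became calls. With 1 library left out, ranges were -0.72 to 0.49 at CG45087, -0.55 to 0.94 at Ppr-Y, -1.58 to 0.37 at the foxo region, -1.94 to 0.32 at the X region without a gene, -0.93 to 1.5 at the scaffold region and -1.33 to 1.06 at the 2R region without a gene. For gene sums they were -0.22 to 0.78 for Atf3, -0.48 to 1.04 for CCHa2, -1.25 to 0.21 for Cyp4g1, -0.66 to 0.22 for EcR, -1.28 to 0.27 for GstD1, -0.29 to 1.04 for Myo61F, -2.76 to 0.08 for Ten-a, -1.69 to 0.31 for foxo, -0.48 to 4.64 for gce, -0.67 to 0.18 for osa, -0.24 to 0.94 for sgg and -0.14 to 0.51 for ush.

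Without TMM, CG45087 was at 0.10, Ppr-Y at 0.28, the scaffold region at 0.01 and EcR at 0.11. Without the filter, Ppr-Y was at 0.03 and gce at -0.54. Over regions read in all libraries, Ppr-Y was at 0.01, EcR at 0.85 and Hnf4 at 1.19. Without both numbered 1, Ppr-Y was at 0.54 (0.50 in DESeq2), the foxo region at 0.20 (0.22 on arms only, 0.18 in DESeq2), the scaffold region at 0.98 (0.93 in DESeq2), Atf3 at -0.15, ClC-a at -0.16 (-0.15 on arms only), EcR at 0.38, GstD1 at 0.39 (0.40 in DESeq2), Ten-a at 0.60 (0.63 in DESeq2), the foxo sum at 0.24 (0.26 in DESeq2), gce at -0.22 and osa at 0.00 (0.01 on arms only and in DESeq2).

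Same-numbered control and switched libraries had deviations from their group means that correlated at 0.217, 0.174 and 0.0928, and the last misses the bound of 0.1, so the numbers were not taken as pairs. As a hint from the data, control 3 correlated higher with switched 2 than with switched 3. With the replicate block 0 regions were called, 8 were higher and 24 lower at an unadjusted p under 0.05, and reversed values were 0.14 at Ppr-Y, 0.33 at the scaffold region, 0.04 at the 2R region, -0.35 for CCHa2 and -0.25 for sgg.

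Nuclear counts were 22164 to 138767 a library, and every pair of libraries differed by more than counting error, with chi-square per degree of freedom of 12.2 to 28.7. The median standard error was 1.66. What part depth has in it was not tested.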

Other observations

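Regions that DESeq2 called without both libraries numbered 1 also lie near genes outside the named set, of which 4 picked after their values were seen are given here. At SerRS-m, the mitochondrial seryl-tRNA synthetase gene, counts were 0, 78 and 58 in control 1 to 3 and 0, 4 and 0 in switched 1 to 3 (adjusted p in DESeq2 0.000896). At eIF1, a translation initiation factor gene, they were 15, 17 and 32 against none, so all 3 switched libraries were empty (adjusted p in DESeq2 0.0241). AGO3, of the piRNA pathway that silences transposons, was higher in the deep switched libraries, with 23 and 4 counts in control 2 and 3 and 146 and 67 in switched 2 and 3. In the libraries numbered 1 its order was the other way round, with 126 in control and 23 in switched. One region of GstE12, a glutathione S-transferase gene, had 13, 153 and 115 counts against 0, 69 and 28 (log2 fold change in DESeq2 without both numbered 1 -1.73 ± 0.46), while a second region of the gene had 15, 41 and 84 against 28, 133 and 13.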
